A study of Homo sapiens with 8 samples.

Results

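The HOX cluster genes were described in L1236, a Hodgkin lymphoma cell line of B cell origin, by collecting array probes whose gene symbol was HOXA, HOXB, HOXC or HOXD followed by a number. The 38 HOX genes described had 49 probes, among 16557 named genes on the array. 28 of them had 1 probe, 9 had 2 probes and HOXB3 had 3 probes. L1236 cells carried either the empty retroviral vector (EV) or the same vector carrying a sponge against miR-155, that is, a transcript whose binding sites take up this miRNA, and GFP-positive cells were sorted from both. From each population, total RNA (T) and RNA recovered with an antibody against Ago2 (IP) were hybridised to 4 two-colour arrays, so the groups were EV T, EV IP, sponge T and sponge IP with 1 RNA sample each. Every RNA was labelled once with Cy3 and once with Cy5, which gave 8 channels. These labellings are technical: an error given below is the SD over 2 dye orientations (IP/T ratios) or 2 dyes (sponge minus EV), it does not cover the spread between cultures or immunoprecipitations, and no test was possible. Precision is limited by having 4 arrays. No IgG control array was analysed here.

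HOX genes encode homeodomain transcription factors that give cells their position along the body axis. They lie in 4 clusters, and the number in a gene's name is its paralogue group, with low numbers at one end of each cluster (anterior genes) and high numbers at the other (posterior genes). HOX proteins bind DNA together with TALE homeodomain cofactors of the PBX, MEIS and PKNOX families. In blood, HOXA and HOXB genes are known for their expression in stem and progenitor cells, where MLL complexes maintain and Polycomb complexes repress the clusters. Ago2 carries miRNAs, and transcripts held by it are recovered in the IP, so the IP/T ratio describes how strongly a transcript was represented in that fraction.

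MiRNA genes also lie within the clusters, and miR-10 and miR-196 are known regulators of HOX transcripts. Their mature sequences are shown beside that of miR-155, the miRNA the sponge binds, since the IP/T comparison concerns miRNA-loaded Ago2. Sequences and positions are from RefSeq (GRCh38.p14), are written 5′ to 3′, and carry the seed (bases 2 to 8) in capitals. The array measured no miRNA, binding sites were not analysed here, and miR-10b-5p is named only.
miR-155-5p (chr21:25573983-25574006, + strand): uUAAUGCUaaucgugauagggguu
miR-10a-5p (chr17:48579904-48579926, - strand, between HOXB4 and HOXB5): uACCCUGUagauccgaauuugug
miR-196a-5p (chr17:48632532-48632553, - strand, between HOXB9 and HOXB13, and chr12:53991762-53991783, + strand, between HOXC10 and HOXC9): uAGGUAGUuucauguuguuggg
miR-196b-5p (chr7:27169528-27169549, - strand, between HOXA9 and HOXA10): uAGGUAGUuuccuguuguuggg
miR-615-3p (chr12:54034010-54034031, + strand, within HOXC5): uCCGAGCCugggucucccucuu
Of these, miR-196a-5p and miR-196b-5p shared the seed AGGUAGU, and no seed was shared with miR-155-5p.

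HOX transcripts were detectable from all 4 clusters, but from fewer genes than on the array as a whole. Detection required a signal well above background in 4 or more of 8 channels, and 20 of 38 HOX genes (52.6%) had such a probe. By the same rule 12194 of 16557 named genes (73.6%) were detected, and 57 of 97 homeobox genes outside the clusters (58.8%). The HOXB cluster had 7 of 10 genes detected, HOXA 5 of 10, HOXD 5 of 9 and HOXC 3 of 9. Along the clusters, 3 of 7 genes of paralogue groups 1 to 3 were detected. In groups 4 to 8 it was 10 of 15, and in groups 9 to 13 it was 7 of 16. HOXA6, HOXB8, HOXC4 and HOXC6, all in groups 4 to 8, were detected but failed the dye filter described below. Genes that passed it were 3 of 7, 6 of 15 and 7 of 16, so the central groups then stood no higher. By cluster 6 HOXB, 4 HOXA, 5 HOXD genes and 1 HOXC gene passed it. The 16 genes without a single channel above background were HOXA2, HOXA7, HOXA9, HOXA11, HOXA13, HOXB1, HOXB5, HOXC8 to HOXC13, HOXD1, HOXD4 and HOXD12. All 6 HOXC genes from HOXC8 to HOXC13 were among them. HOXA9, a gene known from acute myeloid leukaemia, was undetected between the undetected HOXA7 and the detected HOXA10. An undetected gene was not detectable at this signal, which does not show that its transcript was absent, and in a bulk sample fewer expressing cells and less RNA per cell cannot be told apart.

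**Figure D1:**
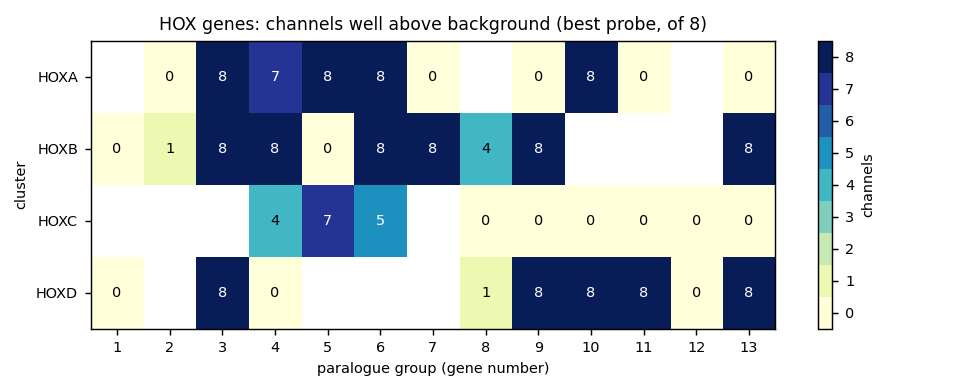
Map of the 38 HOX genes by cluster (rows) and paralogue group (columns). Colour and number give how many of 8 channels were well above background for the best probe of the gene; blank squares hold no gene described here. Genes with 8 channels lie in HOXA, HOXB and HOXD, and HOXC8 to HOXC13 stand at 0.

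HOXB2 and HOXD8 were above background in 1 channel each. The HOXB2 probe A_24_P33077 read 5.40 in sponge T with Cy3 and 5.03 in sponge IP with Cy5 (log2 signal), which were both channels of 1 array, and 3.00 to 3.35 in the other 6 channels. The HOXB8 probe gave the same kind of pattern on a different array, with 8.51 in sponge T with Cy5 and 7.72 in sponge IP with Cy3, against 3.72 to 5.48 in the other channels. Neither gene read high in the same RNA when the dye was exchanged, so the dye filter removed HOXB8. The part of those arrays in these values was not tested.

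Marker lists of cell types were set beside the stated identity of the cells. All 8 Hodgkin cell markers were detected (among them TNFRSF8, the CD30 receptor, and CCL17), and 5 of 8 B cell markers, while MS4A1 and CD22 had no channel above background, a known trait of Hodgkin cells that have lost part of the B cell programme. Of the markers of stem and progenitor cells, where HOX genes are best known in blood, 0 of 3 were detected (CD34, KIT, FLT3). Of the other lists, 4 of 6 T cell markers were detected with CD3D and CD3G at 0 channels, 3 of 5 myeloid markers with LYZ and MPO at 0 channels, and 1 of 5 fibroblast and epithelial markers on the array. CD4 (log2 signal 14.20 in EV T), CSF1R (9.60) and CD14 (7.24) were above background in all 8 channels, and the B cell marker CD79A was at 12.95. Of all named genes 73.6% were detected, so these counts do not separate B cells from T cells.

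The promoter letters were compared between neighbours that differed in detection. RefSeq promoters (250 bases before to 50 after the start, GRCh38.p14) were at hand for 20 of 38 HOX genes, with the first listed start used for HOXA3 and HOXA10. Their median CpG count was 22.5, against 14 over all 35116 promoters. It was 23.5 in the 10 detected and 20.5 in the 10 other HOX genes, whose own counts spread from 4 to 44. HOXA9 (undetected, 22 CpG) and its neighbour HOXA10 (detected, 21 CpG) are shown with CpG in capitals.
HOXA9 (chr7:27165488-27165787, - strand): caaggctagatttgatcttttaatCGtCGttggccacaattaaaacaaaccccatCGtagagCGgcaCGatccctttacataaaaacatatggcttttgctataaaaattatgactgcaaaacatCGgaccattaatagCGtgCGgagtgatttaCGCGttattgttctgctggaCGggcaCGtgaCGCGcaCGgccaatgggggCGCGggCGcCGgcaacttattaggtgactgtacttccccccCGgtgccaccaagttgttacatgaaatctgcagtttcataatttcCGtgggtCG
HOXA10 (chr7:27179812-27180111, - strand): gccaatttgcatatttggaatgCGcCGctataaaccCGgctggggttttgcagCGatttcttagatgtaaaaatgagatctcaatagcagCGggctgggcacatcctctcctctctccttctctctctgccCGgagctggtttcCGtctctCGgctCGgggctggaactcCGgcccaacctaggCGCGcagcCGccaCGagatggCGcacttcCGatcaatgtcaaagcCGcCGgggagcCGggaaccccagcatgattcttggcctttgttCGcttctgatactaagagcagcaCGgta
Both windows are rich in CpG, and in this pair the count did not separate the detected gene from the undetected one. In other neighbours the detected gene had more CpG: HOXD3 25 and HOXD4 4, HOXA10 21 and HOXA11 13, HOXA3 15 and HOXA2 11. The undetected HOXD12 had 19, between the detected HOXD11 with 27 and HOXD13 with 24. The detected gene had fewer for HOXA6 (29) beside HOXA7 (31) and HOXD3 (25) beside HOXD1 (36). A link between CpG count and detection was not tested.

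Of 25 detected HOX probes, 19 probes of 16 genes were kept for comparison because Cy3 and Cy5 of each RNA lay within 2-fold. The 6 that were removed belonged to HOXA6, HOXB4, HOXB7, HOXB8, HOXC4 and HOXC6, and HOXB4 and HOXB7 stayed in with another probe. Of 49 HOX probes, 21 were above background in no channel and 3 in 1 channel each.

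**Figure D2:**
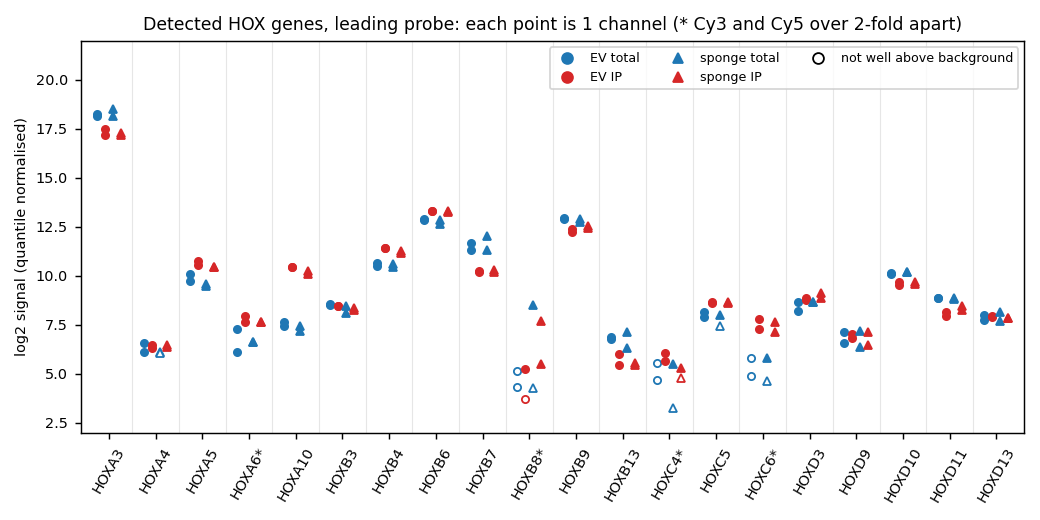
Log2 signal after quantile normalisation of the leading (brightest) probe of each of 20 detected HOX genes. Each point is 1 channel: circles are EV, triangles sponge, blue T, red IP, and open symbols are channels not well above background; levels may be compared within a gene but not between genes, since probes differ. In HOXA10 every IP channel lies above every T channel, in HOXB7 below.

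IP/T ratios were listed by cluster, with every kept probe and then with 1 leading probe per gene. In EV cells the 6 kept HOXA probes had a median log2 IP/T of 1.08 (range -0.85 to 2.91) and 5 of them were above 0, whereas the 7 HOXB probes had a median of -0.61 (-1.27 to 0.84) with 2 above 0. The 5 HOXD probes lay near equality, at 0.043 (-0.82 to 0.37), and the only HOXC probe, HOXC5, at 0.61. Sponge cells gave medians of 1.25 for HOXA, -0.35 for HOXB and -0.07 for HOXD and 0.91 for HOXC5. The HOXA probes belong to 4 genes, with HOXA10 and HOXA3 counted by 2 probes each, and the HOXA3 probe A_23_P501538 was kept through its IP channels alone. With the leading probe of each gene the EV medians were 0.39 for 4 HOXA genes (3 above 0) and -0.33 for 6 HOXB genes (2 above 0), so the HOXA median was less than 2-fold from equality. These are descriptions of few genes with no test of a difference between clusters.

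HOX probes passing 2-fold were counted in both directions, beside the share over all kept probes. IP/T was 2 or more for 3 of 19 kept HOX probes in EV cells (15.8%), where 17.5% of all 22470 kept probes were, and for 3 of 19 in sponge cells, where again 17.5% were. These 3 were both HOXA10 probes and the HOXA3 probe A_23_P501538, which passed the detection filter only where it was high, so the count is not read against that share. With the leading probe alone HOXA10 was the 1 enriched gene of 16. T/IP was 2 or more for 3 of 19 in EV cells (15.8%, against 19% of all) and for 4 of 19 in sponge cells (21.1%, against 17.8% of all). Over the HOX probes the median log2 IP/T reached 0.050 ± 0.12 (EV) and 0.033 ± 0.14 (sponge), against -0.16 ± 0.01 and -0.13 ± 0.03 over all kept probes. The sign was the same in both dye orientations for 16 of 19 HOX probes in each population. The calls depended on the background correction: with normexp, loess and Aquantile 2 HOX probes in EV and 0 in sponge cells passed 2-fold toward IP, and 0 and 1 toward T.

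HOXA10, a posterior gene known for its role in myeloid differentiation and leukaemia, was IP-enriched with both of its probes. Probe A_24_P77904 read 7.62 and 7.46 in EV T and 10.44 and 10.47 in EV IP, and 7.16 and 7.43 in sponge T and 10.23 and 10.12 in sponge IP. That is 7.53-fold in EV cells (log2 2.91 ± 0.09) and 7.37-fold in sponge cells (2.88 ± 0.11). Both IP groups stood clear of both T groups with this probe. Probe A_23_P253368 read 7.60 and 7.76 in EV T and 9.95 and 10.01 in EV IP, a difference of 2.30 ± 0.16, and 7.49 and 8.38 in sponge T and 9.88 and 9.62 in sponge IP, a difference of 1.82 ± 0.44. With normexp, loess and Aquantile A_24_P77904 gave 1.34 and 0.86, so the sponge value no longer passed 2-fold. Only HOXA3, HOXA10 and HOXB3 had more than 1 kept probe. Of these HOXA10 was the 1 gene whose kept probes both passed 2-fold enrichment in the quantile-normalised values.

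HOXA4, HOXA5 and HOXA6 had smaller ratios, all on the IP side. HOXA5, a central gene with known tumour suppressor activity in breast, read 9.74 and 10.11 in EV T and 10.73 and 10.58 in EV IP, which gave log2 IP/T of 0.73 ± 0.15 there and 0.93 ± 0.06 with the sponge. HOXA4 was at 0.05 ± 0.24 in EV cells and 0.34 ± 0.05 in sponge cells, so its EV value did not exceed the dye error. HOXA6, removed for its dye difference in EV T (6.13 and 7.29), was higher in IP by 1.08 ± 0.62 and 1.02 ± 0.05.

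**Figure D3:**
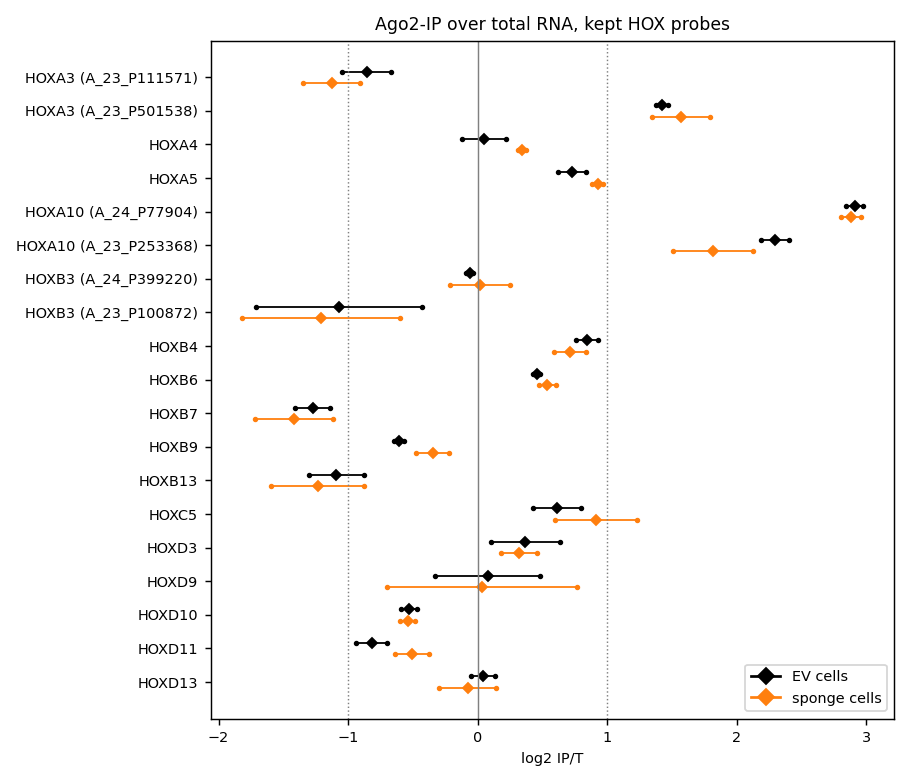
Log2 IP/T of the 19 kept HOX probes in EV (black) and sponge (orange) cells. Diamonds are means, dots joined by a line are the 2 dye orientations, and dotted lines mark 2-fold; both HOXA10 probes lie right of the upper line in both populations.

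In EV cells IP/T lay below equality for 5 of 7 HOXB probes, and for 12545 of all 22470 kept probes. Both kept HOXB3 probes were among the 5, and A_24_P399220 of HOXB3 stood at 0.02 ± 0.33 in sponge cells. HOXB7, a central gene, read 11.34 and 11.66 in EV T and 10.25 and 10.21 in EV IP with probe A_23_P49810, and 11.30 and 12.03 in sponge T and 10.31 and 10.18 in sponge IP. T exceeded IP with both dyes, at log2 IP/T of -1.27 ± 0.19 (EV) and -1.42 ± 0.43 (sponge). HOXB13, the most posterior HOXB gene and a known prostate factor, read 6.89 and 6.78 in EV T and 5.47 and 6.01 in EV IP, giving log2 IP/T of -1.09 ± 0.30 there and -1.24 ± 0.51 with the sponge. With normexp, loess and Aquantile these became -0.21 and -0.19, and HOXB7 became -0.96 in EV cells, so neither passed 2-fold toward T in EV cells. The HOXB13 values are those of probe A_23_P4212 alone, since its other probe, A_24_P365015, was above background in no channel. HOXB9 was at -0.61 ± 0.06 and -0.35 ± 0.18 and stayed under 2-fold. The exceptions on the IP side were HOXB4, known for expanding blood stem cells, with 10.52 and 10.65 in EV T and 11.41 and 11.44 in EV IP (0.84 ± 0.12 in EV and 0.71 ± 0.18 in sponge cells), and HOXB6, with 0.46 ± 0.04 and 0.54 ± 0.10.

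The posterior HOXD genes act in limb and urogenital patterning. HOXD10 read 10.13 and 10.11 in EV T and 9.52 and 9.66 in EV IP, and HOXD11 8.89 and 8.85 against 8.15 and 7.96, so that both were lower in IP, by less than 2-fold. Their log2 IP/T values were -0.53 ± 0.09 and -0.82 ± 0.17 in EV cells and -0.54 ± 0.08 and -0.51 ± 0.19 in sponge cells. With normexp, loess and Aquantile HOXD11 moved close to equality, at -0.16 and -0.04. HOXD3, the anterior member, was at 0.37 ± 0.38 and 0.32 ± 0.20. For HOXD9 (0.08 ± 0.57 and 0.03 ± 1.03) and HOXD13 (0.04 ± 0.13 and -0.07 ± 0.31) the difference was smaller than the dye error in both populations. HOXC5, a central gene, read 8.17 and 7.88 in EV T and 8.68 and 8.60 in EV IP, with log2 IP/T of 0.61 ± 0.26 and 0.91 ± 0.45, which became 0.34 and 0.28 with normexp, loess and Aquantile.

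Different probes of 1 gene could disagree. 5 HOX genes had more than 1 detected probe, and in 3 of them the leading 2 probes had IP/T of opposite sign in EV cells. In these 3 genes 1 probe failed the dye filter (HOXB4, HOXB7) or was undetected in T (HOXA3). The share of such genes over the whole array was not taken, so the count is not read as a trait of HOX genes. For HOXA3, an anterior gene needed for pharyngeal arch organs, probe A_23_P111571 read 18.17 and 18.24 in EV T and 17.19 and 17.50 in EV IP (log2 IP/T -0.85 ± 0.27), with -1.13 ± 0.31 in sponge cells, which passed 2-fold toward T. Probe A_23_P501538 of the same gene read 5.99 and 5.78 in EV T and 7.26 and 7.37 in EV IP (1.43 ± 0.07, and 1.57 ± 0.32 in sponge cells), so it counted as enriched. Its T channels were not well above background in either population, so IP exceeded T by at least 1.16-fold in EV and at least 1.12-fold in sponge cells, and enrichment of 2-fold is not secured. Such a bound sets the IP mean against the higher of the dim probe's own signal and the lowest signal well above background on each array, after normexp and loess normalisation. The HOXA3 probes also disagreed in level: A_23_P111571 ranked 148 of 22470 kept probes by mean signal, and A_23_P501538 was undetected in T. Which of them reflects the level of HOXA3 was not tested.

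For HOXB4, probe A_24_P305067 was removed by the dye filter and read 8.95 and 9.45 in EV T and 7.95 and 8.46 in EV IP, toward T (-1.16 ± 1.02 in sponge cells), while the kept A_24_P416370 stood toward IP. For HOXB7, the removed A_23_P55281 gave 1.62 ± 1.01 against -1.27 ± 0.19. HOXB3, an anterior gene expressed in blood progenitors, had -0.06 ± 0.03 with A_24_P399220 and -1.07 ± 0.91 with A_23_P100872, which passed 2-fold toward T in both populations (-1.21 ± 0.86 in sponge cells). Among the detected probes of HOXB3 and HOXB4 the dyes differed more in the probe further toward T. In HOXB7 they differed more in the probe toward IP. Which transcript of a gene a probe matches was not tested.

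HOXC4 and HOXC6, central HOXC genes that the dye filter removed, had no T channel above background in EV cells. HOXC6 read 5.83 and 4.89 in EV T and 7.82 and 7.30 in EV IP, so IP was at least 1.29-fold higher, and HOXC4 at least 1.13-fold higher.

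Sponge cells and EV cells had nearly the same HOX signals. In T, 0 of 19 kept HOX probes differed 2-fold with the same sign in both dyes, where 0.409% of all kept probes did, and in IP 0 of 19 did, where 0.151% did. At those background shares less than 1 of 19 probes would be called, so the counts of 0 do not set the HOX genes apart. The median of sponge minus EV was -0.076 ± 0.061 in T and -0.053 ± 0.034 in IP on the log2 scale, with 12 of 19 probes below 0 in each, against -0.015 ± 0.026 and 0.0062 ± 0.0034 over all kept probes. T with Cy5 in sponge cells was the shallowest channel, with 54.1% of spots well above background where the others had 61.0 to 65.7%.

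The probe differences were small and often within the dye error. Sponge minus EV in T ran from -0.40 to 0.25, and exceeded its own SD for 8 of 19 probes. HOXA5 had the lowest value in T, reading 9.74 and 10.11 in EV and 9.47 and 9.57 in sponge cells. It gave -0.40 ± 0.19 in T and -0.21 ± 0.10 in IP, so T and IP differed in the same direction in this gene. HOXC5 gave -0.30 ± 0.20 in T, where its sponge Cy5 channel was not well above background, and the value turned to 0.025 with normexp, loess and Aquantile.

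In IP the differences ran from -0.28 to 0.30, and exceeded their SD for 10 of 19 probes. HOXD11 had the highest value, reading 8.15 and 7.96 in EV IP and 8.46 and 8.25 in sponge IP, a difference of 0.30 with both dyes. Its T signal was 8.89 and 8.85 in EV and 8.89 and 8.83 in sponge cells, so the gene differed in IP and hardly in T, and with normexp, loess and Aquantile the IP difference was 0.12. HOXA10 had the lowest value, with -0.28 ± 0.10 for A_24_P77904 and -0.23 ± 0.23 for A_23_P253368. HOXB4 was lower in IP by 0.21 ± 0.04 and HOXB3 by 0.17 ± 0.06 (A_24_P399220), whereas HOXB9 and HOXD3 were higher by 0.17 ± 0.14 and 0.17 ± 0.13.

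**Figure D4:**
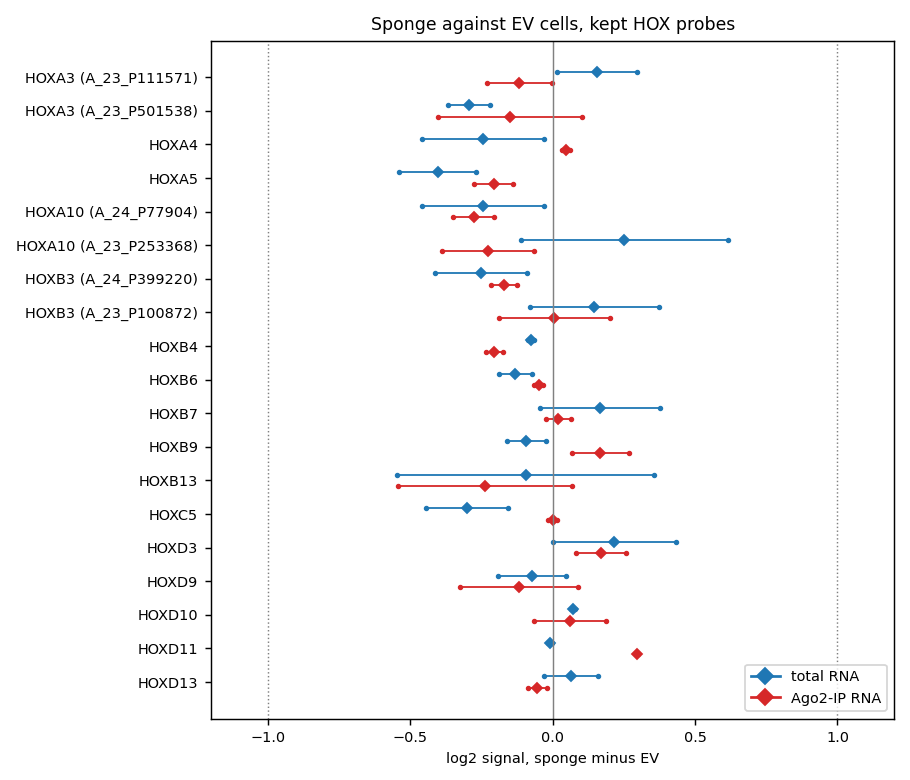
Sponge minus EV on the log2 scale for the 19 kept HOX probes in T (blue) and IP (red). Diamonds are means, dots joined by a line are the Cy3 and Cy5 values, and dotted lines mark 2-fold; no point reaches a dotted line, and HOXA5 in T lies lowest.

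The partners of HOX proteins had the highest share toward IP of the HOX-related lists. Of 8 TALE cofactors 7 were on the array and 6 were kept, and 5 of these 6 had IP/T of 2 or more in EV cells (17.5% of all kept probes) and 3 of 6 in sponge cells, where PBX4 passed 2-fold toward T, with a median log2 IP/T of 1.27 and 1.09 (medians over all kept probes are given above). PBX3 and PBX2, which pair directly with HOX proteins on DNA, were at 2.93 ± 0.02 and 1.69 ± 0.10 in EV cells, and PBX3 at 2.97 ± 0.05 in sponge cells. At the low end stood MEIS2, at 1.01, and PBX4, at -0.99 ± 0.53. MEIS2 and MEIS1 (1.03 ± 0.17) passed 2-fold only narrowly. These are values of the brightest kept probe. Another kept probe of PKNOX1 gave 0.55 ± 0.08 where the brightest gave 1.52 ± 0.12, while another of PBX2 gave 1.71 ± 0.40. MEIS3 was above background in no channel.

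The regulators of the clusters were mostly detected. All 16 members of the MLL list were detected and 15 kept, 2 with IP/T of 2 or more in EV cells (17.5% of all kept probes) and 0 with T/IP of 2 or more (19% of all), at a median of -0.03, from MLLT10 (1.84 ± 0.37) and AFF4 (1.15 ± 0.31) to MEN1 (-0.79 ± 0.08) and ASH2L (-0.86 ± 0.14). These counts rest on the brightest kept probe of each gene: another kept probe of PSIP1 gave 3.36 ± 0.05 where the brightest gave -0.03 ± 0.46, and another of MLLT1 gave -1.98 ± 0.73 where the brightest gave -0.13 ± 0.09. Of 17 Polycomb repressive complex 1 genes 15 were kept, 5 of them toward IP (17.5% of all kept probes) and 1 toward T (19% of all), at a median of 0.57, from PCGF3 (2.43 ± 0.06) and PHC2 (1.71 ± 0.09) to PHC1 (-0.56 ± 0.31) and RING1 (-1.27 ± 0.16), the last an E3 ligase of the complex. Here too the probe mattered: another kept probe of RNF2 gave 0.12 ± 0.10 where the brightest gave 1.60 ± 0.18. Another of BMI1 gave 1.48 ± 0.20 where the brightest gave 0.57 ± 0.07. Transcripts of both lists were thus detectable in cells in which 20 of 38 HOX genes were detected and 16 had no signal above background. The proteins and their complexes were not measured.

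Of 9 upstream regulators 5 were kept, with 1 toward IP in EV cells and 2 in sponge cells (17.5% of all kept probes in each population). RARG and RARA, retinoic acid receptors that act on anterior HOX genes, stood highest (2.81 ± 0.20 and 0.90 ± 0.06), and CDX2, a caudal homeobox factor, and CTCF, an insulator protein, lowest (0.60 ± 0.16 and -0.50 ± 0.23). These are values of the brightest kept probe, and another kept probe of RARA gave -0.13 ± 0.21. Of 27 noncoding and flanking genes of the clusters 3 were found by name on the array, HOXA11-AS (-0.15 ± 0.30), PRAC1 (-0.39 ± 0.06) and EVX1 (-1.30 ± 0.36). HOXA11-AS was above background in all 8 channels while HOXA11, on the opposite strand, was above it in none.

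Among the 47 kept homeobox genes outside the clusters, 8 had IP/T of 2 or more and 8 T/IP of 2 or more in EV cells, where 17.5% and 19% of all kept probes did, with a median of -0.07. SIX4 (3.76 ± 0.22) and OTX1 (2.85 ± 0.21) stood highest and LBX1 (-2.14 ± 0.39) and POU3F3 (-3.18 ± 0.13) lowest. Another kept probe of SIX4 gave 2.04, and another of OTX1 gave 0.98, under 2-fold. The extremes of the 19 kept HOX probes were -1.27 (HOXB7) and 2.91 (HOXA10). A range widens with the number of values, so the spread of the larger list is not read against that of the HOX probes. In all these lists 0 kept genes differed 2-fold between sponge and EV cells in T or in IP.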

How the data were processed

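RNA of 4 samples (EV and sponge, T and Ago2-IP) was measured on 4 two-colour 44k Agilent arrays, each RNA in both dyes. The deposited files hold the authors' scanner output: processed spot intensity, background-subtracted and dye-normalised by Agilent Feature Extraction (10.5.1.1 per the labels, 10.7.3.1 per the file headers), with detection and outlier flags. Outlier spots were left out, spots of a probe averaged as log2 of the deposited intensity, and the 8 channels quantile normalised (limma 3.58.1, R 4.3.3). The deposited value table of 22282 probes was an alternative. Its log2 values by the authors lay within 0.117 of these in every channel (column medians 9.85 to 9.90), so it is quantile normalised and not centred, and its IP and T labels run the same way. Quantile normalisation gives IP and T the same distribution, so IP/T is relative to all probes. Probes were kept if well above background in at least 4 of 8 channels and if Cy3 and Cy5 of each RNA lay within 2-fold (22470 of 41000). No spot was saturated. Probes were named by matching the accession in the files to RefSeq (GRCh38.p14), which named 23958 of 41000 probes. The named genes were every HOX gene with a kept probe, partly detected ones by channel count, and the 2 highest and 2 lowest IP/T of each list in EV cells. A list took each gene at its brightest kept probe. The homeobox list was narrowed after its values were seen, to leave out POU2AF1 and antisense genes. A few genes of the family and lists are not reported here and enter no HOX or list count. HOX genes and lists were chosen with earlier results of these data known. Alternatives were other background correction, scaling, detection and dye filters, single dyes and single orientations. The averaging and normalisation were tested on simulated data.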

Additional observations from a re-analysis of the deposited data

Results flagged for a closer look

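In 4 HOX probes sponge minus EV had opposite signs in T and in IP with both dyes, so the sponge minus EV difference of log2 IP/T was -0.27 for HOXA3 (A_23_P111571), 0.31 for HOXD11, 0.29 for HOXA4 and 0.26 for HOXB9. The difference between T and IP was not tested in any of them, since each group holds 1 RNA sample. Every one of these values is below 2-fold. The SD over dyes exceeded the T difference in HOXA3 (0.16 ± 0.20), HOXA4 (-0.24 ± 0.30) and HOXB9 (-0.093 ± 0.097). It also exceeded the IP difference in HOXA3 (-0.12 ± 0.16). With normexp, loess and Aquantile the opposite signs were lost in HOXA4, whose IP difference turned to -0.025, and in HOXD11, whose T difference turned to 0.0036.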

How the results depend on the processing

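The counts of IP-enriched and T-enriched HOX probes depended on the processing. Main values were 3 and 3 enriched probes in EV and sponge cells, 3 and 4 with T/IP of 2 or more, and medians of 0.050 and 0.033 (IP/T), -0.076 (T) and -0.053 (IP). With normexp, loess and Aquantile, no probe was enriched in sponge cells (0), T-enriched probes were 0 and 1, and the T median turned to 0.022. With normexp and quantile, T-enriched probes were 0 and 2, enriched probes in sponge cells 1, and the T median -0.0084. Scaling to the 75th percentile gave a sponge IP/T median of 0.23. Detection in all 8 channels gave an IP median of -0.12. Without the dye filter, 6 probes were enriched in each population, the sponge IP/T median was 0.32, the IP median -0.098, and 1 probe (HOXB8) differed 2-fold in IP. A dye limit of 1.5-fold gave IP/T medians of 0.21 and 0.33 and T-enriched counts of 0 and 1. The arrays with IP in Cy5 alone gave a sponge IP/T median of 0.38 and T-enriched counts of 1 and 1, and those with IP in Cy3 alone a sponge IP/T median of 0.18 and an IP median of -0.016. With a single dye, the EV IP/T median ranged from -0.034 to 0.21, T-enriched probes in sponge cells from 1 to 3 and the IP median from -0.065 to -0.016. The other summary values stayed within the limits set. For single genes, 432 values stayed within 1 SD and 80 moved further. Log2 IP/T of HOXA10 (A_24_P77904) in EV cells ranged from 1.29 to 3.01 and kept its direction. Naming probes from a gene name column was not run, since the files hold none. No paired analysis was possible because each group holds 1 RNA sample. Signal near background limits HOXA3 (A_23_P501538), HOXA4, HOXC4 and HOXC6.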
